A study of Mus musculus with 9 samples.

Results

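Nmrk2 encodes a nicotinamide riboside kinase, and its fold change was among the largest when DNMT3a siRNA was compared with negative siRNA in cultured embryonic heart cells. The data were read here for the NAD salvage enzymes as a group, 9 genes of the 43629 in the count tables: Nmrk1, Nmrk2, Nampt, Nmnat1, Nmnat3, Naprt, Nadsyn1, Nadk and Nnt. They were taken by matching each row's Ensembl ID to the GENCODE mouse annotation of GRCm38, and 9 of 9 passed the filter on low counts that left 16561 genes for testing. Nmrk2 was chosen by its measured fold change under siRNA in these libraries, so its values are a description with no test. The other 8 were included for their place in NAD metabolism and were tested.

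The cells were prepared at embryonic day 13.5 from heart ventricles of the outbred mouse strain CD-1, with each litter's tissue combined before papain digestion, and cells sticking to an uncoated flask were discarded. After 48 h of culture, siRNA at 0.012 pmol was delivered by lipofection; 72 h after that, cells bearing VCAM1, a surface protein of embryonic heart muscle cells, were isolated magnetically. The groups were DNMT3a siRNA, a pool of 4 siRNAs against the DNA methyltransferase Dnmt3a; DNMT3b siRNA, a pool of 4 against its relative Dnmt3b; and the AllStars negative control siRNA, called negative siRNA here. Each group had 3 libraries, and all cells carried the CD-1 background and were transfected. The labels do not say whether the 3 libraries of a group came from separate cultures, so the p-values measure the spread between these libraries, which may be technical.

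NAD carries electrons in metabolism and is also consumed by sirtuins, PARP enzymes and the ectoenzyme CD38, so cells keep remaking it. Nampt, in the main salvage route of most tissues, turns nicotinamide into nicotinamide mononucleotide; the kinases Nmrk1 and Nmrk2 make the same intermediate from nicotinamide riboside. The Nmnat enzymes then complete NAD from it. Naprt and Nadsyn1 start and finish the parallel route from nicotinic acid, and Nadk phosphorylates NAD to NADP. Nnt, in the inner mitochondrial membrane, passes electrons from NADH to NADP. Nmrk2 is known as a gene of skeletal muscle that becomes abundant in the stressed or failing heart, whereas Nmrk1 is made in many tissues.

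Reads in genes numbered 27852412 to 35896018 per library (median 31102332). Read counts are given as CPM, a share of each library's reads in genes, after scaling each library by the trimmed mean of M values (TMM). Dnmt3a averaged 46.5 CPM with DNMT3a siRNA and 259 CPM with negative siRNA (log2 difference -2.48, SE 0.11, adjusted p = 3.42e-06). Dnmt3b averaged 1.70 CPM with DNMT3b siRNA and 4.30 CPM with negative siRNA (log2 difference -1.34, SE 0.23, adjusted p = 0.00816). Vcam1, the gene of the sorting marker, averaged 229 CPM with DNMT3a siRNA, 283 CPM with DNMT3b siRNA and 306 CPM with negative siRNA, and neither difference from negative siRNA passed (adjusted p = 0.051 for DNMT3a siRNA and 0.632 for DNMT3b siRNA). All 17 cardiomyocyte marker genes looked for were measured, and their summed level ranged over 6405 to 8158 CPM with DNMT3a siRNA, 7930 to 9488 CPM with DNMT3b siRNA and 2638 to 3504 CPM with negative siRNA. The 10 fibroblast markers summed to more in every library, at 41510 to 44480 CPM with DNMT3a siRNA, 39400 to 46340 CPM with DNMT3b siRNA and 41440 to 59940 CPM with negative siRNA. Collagen genes made most of this sum: with DNMT3a siRNA, Col1a1 averaged 21220 CPM, Col1a2 10110 CPM and Col3a1 7536 CPM. The libraries labelled cardiomyocyte thus also held RNA of genes on the fibroblast list, and which cells made it was not tested. Of 7 erythroid markers, 4 were at 0 in every library.

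The promoters of the 2 nicotinamide riboside kinases are printed because the study targeted DNA methyltransferases, whose substrate is the CpG dinucleotide, and because both enzymes catalyse the same reaction. Each window runs from 250 bases before the RefSeq start to 50 bases after it on GRCm38.p6, read 5′ to 3′ on the gene's strand, with every CpG in capitals. The Nmrk2 window lies at chr10:81201988-81202287 on the minus strand and the Nmrk1 window at chr19:18631766-18632065 on the plus strand.
Nmrk2: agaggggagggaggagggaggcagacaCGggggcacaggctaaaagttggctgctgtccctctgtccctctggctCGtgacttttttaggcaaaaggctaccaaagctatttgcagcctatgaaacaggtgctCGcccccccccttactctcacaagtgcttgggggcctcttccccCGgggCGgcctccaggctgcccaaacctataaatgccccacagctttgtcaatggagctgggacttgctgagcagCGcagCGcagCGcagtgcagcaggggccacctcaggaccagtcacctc
Nmrk1: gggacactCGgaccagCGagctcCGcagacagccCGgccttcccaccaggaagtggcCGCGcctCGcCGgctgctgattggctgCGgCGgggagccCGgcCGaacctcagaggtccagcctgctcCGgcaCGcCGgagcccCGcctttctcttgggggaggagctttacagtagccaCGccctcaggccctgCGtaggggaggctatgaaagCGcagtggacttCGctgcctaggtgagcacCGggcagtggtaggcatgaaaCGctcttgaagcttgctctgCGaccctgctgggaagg
The Nmrk2 window holds 8 CpGs at 60.7% GC, against a median of 7 CpGs and 52.7% GC over the 32841 RefSeq promoter windows of the same length. The Nmrk1 window holds 23 CpGs at 67.3% GC, more CpGs than 78.5% of all windows. A TATAAA begins at base 205 of the Nmrk2 window on the gene's strand and occurs in neither orientation in the Nmrk1 window; 13.6% of all windows hold it on either strand. Of the 9 genes, 7 had a window in the RefSeq table, and the other CpG counts were 36 for Nampt, 28 for the upstream and 28 for the downstream start of Nmnat1, 13 for Nmnat3, 27 for Nadsyn1, and 4 and 24 for the 2 starts of Nadk. DNA methylation was not measured in the data used here.

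Nmrk2 (ENSMUSG00000004939, chr10:81198170-81202051, minus strand) had 11.1, 12.8 and 11.3 CPM in the 3 DNMT3a siRNA libraries, 3.32, 3.43 and 3.75 CPM in the DNMT3b siRNA libraries, and 0.641, 1.27 and 1.44 CPM in the negative siRNA libraries. The 3 groups did not overlap: every DNMT3a siRNA library was above every DNMT3b siRNA library, and each of those was above every negative siRNA library. The CPM values rest on 341, 423 and 347 reads with DNMT3a siRNA, 108, 106 and 107 reads with DNMT3b siRNA, and 23, 39 and 39 reads with negative siRNA. The fitted log2 fold change was 3.41 (SE 0.24), or 10.6-fold, for DNMT3a siRNA over negative siRNA, which put Nmrk2 in position 1 of 16561 tested genes. The position was 2 without DNMT3a siRNA library 2, 3 without negative siRNA library 1, 6 without negative siRNA library 2, and 257 of 32185 genes with no filter on low counts. For DNMT3b siRNA over negative siRNA it was 1.66 (SE 0.24), or 3.17-fold, and for DNMT3a siRNA over DNMT3b siRNA it was 1.75 (SE 0.22), or 3.36-fold. Fewer reads per negative siRNA library make that end of the comparison less certain, and the DNMT3a siRNA fold change moved to 3.11 when negative siRNA library 1 was left out.

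**Figure D1:**
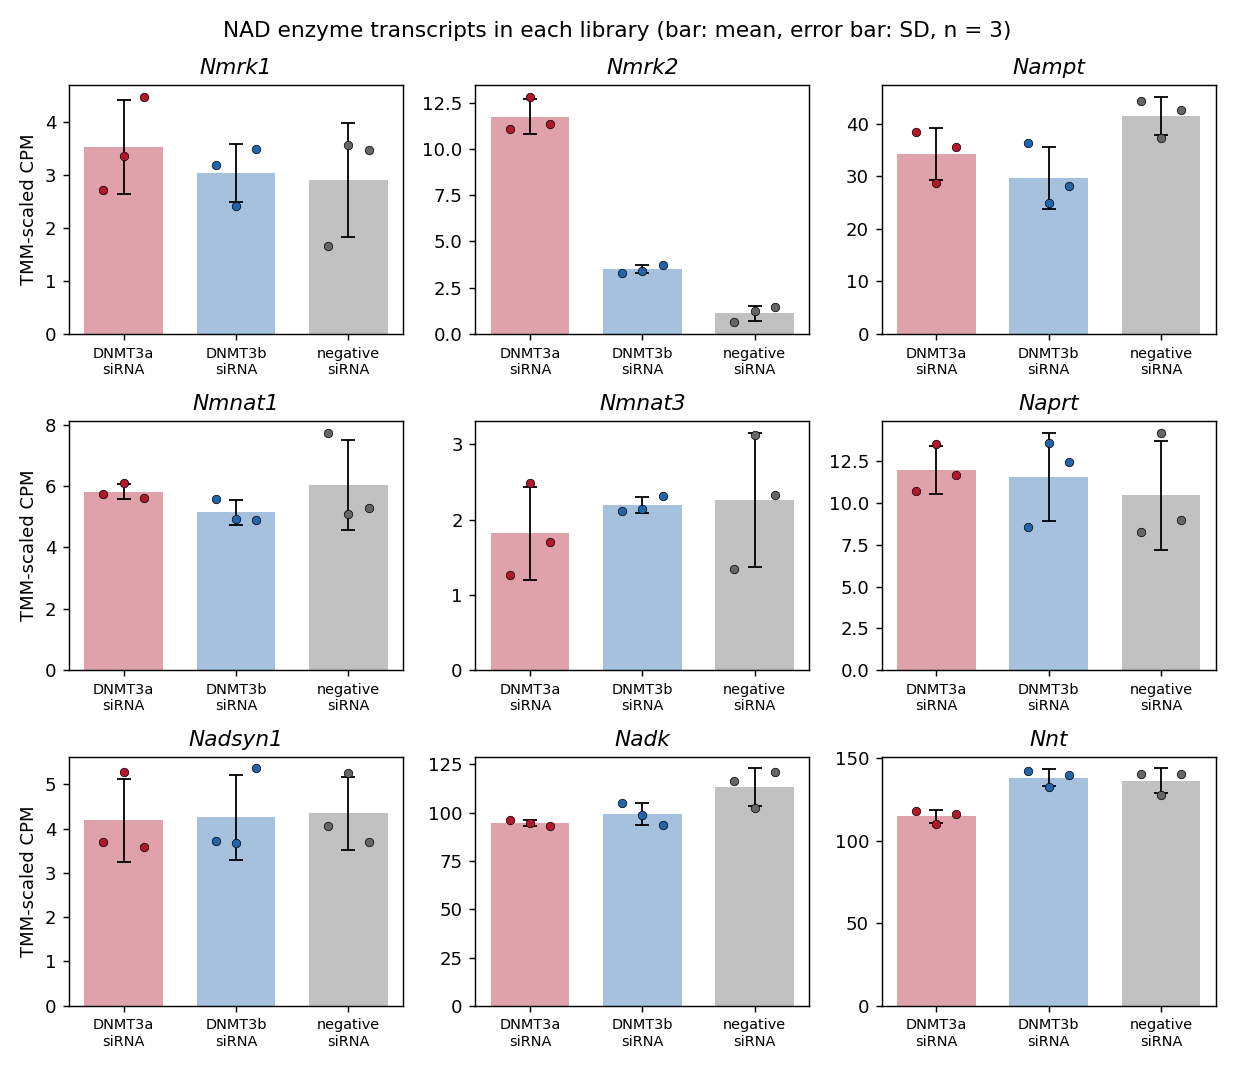
Level of each NAD salvage enzyme in CPM, 1 panel per gene with its own linear axis from 0, in the DNMT3a siRNA, DNMT3b siRNA and negative siRNA groups; points are libraries, bars the mean and error bars the SD (n = 3). Nmrk2 forms 3 separate levels, with means of 11.7 CPM with DNMT3a siRNA, 3.50 CPM with DNMT3b siRNA and 1.12 CPM with negative siRNA.

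In CPM per kilobase of exon, the scale that allows genes to be compared, Nmrk2 averaged 6.33 ± 0.505 with DNMT3a siRNA, 1.89 ± 0.120 with DNMT3b siRNA and 0.602 ± 0.227 with negative siRNA (SD, n = 3 each). It ranked 4 of the 9 genes with DNMT3a siRNA, beside Nampt at 6.76 ± 0.977 CPM per kilobase, and the spreads of these neighbours overlapped. With DNMT3b siRNA it ranked 5, above Nmnat1 at 1.69 ± 0.130 CPM per kilobase with overlapping spreads. With negative siRNA it ranked 8, between Nmrk1 at 0.788 ± 0.291 and Nmnat3 at 0.452 ± 0.179 CPM per kilobase. These group spreads overlapped, but within each negative siRNA library Nmrk2 was below Nmrk1 and above Nmnat3. Nadk was the highest of the 9 in every group, at 25.3 CPM per kilobase with DNMT3a siRNA, 26.5 with DNMT3b siRNA and 30.2 with negative siRNA, followed by Nnt at 16.3, 19.6 and 19.3 CPM per kilobase in the same groups.

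Nmrk1 (ENSMUSG00000037847, chr19:18631950-18652428, plus strand), the other kinase of the pair, did not pass the test in any comparison. It had 2.73, 3.36 and 4.48 CPM with DNMT3a siRNA, 3.20, 2.43 and 3.50 CPM with DNMT3b siRNA, and 1.67, 3.58 and 3.48 CPM with negative siRNA, and the 3 groups overlapped. The log2 fold change was 0.28 (SE 0.30, adjusted p = 0.62) for DNMT3a siRNA over negative siRNA, 0.07 (SE 0.30, adjusted p = 0.921) for DNMT3b siRNA over negative siRNA and 0.21 (SE 0.30, adjusted p = 0.702) for DNMT3a siRNA over DNMT3b siRNA. These levels rest on 60 to 137 reads per library, and the 95% confidence intervals ran from -0.37 to 0.94 for DNMT3a siRNA over negative siRNA and from -0.59 to 0.73 for DNMT3b siRNA over negative siRNA. The ratio of Nmrk2 to Nmrk1 in CPM per kilobase was 6.90 ± 1.63 with DNMT3a siRNA, 2.34 ± 0.414 with DNMT3b siRNA and 0.765 ± 0.060 with negative siRNA (SD, n = 3 each).

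Nampt (ENSMUSG00000020572, chr12:32819545-32853349, plus strand), which makes nicotinamide mononucleotide from nicotinamide, had 38.4, 28.7 and 35.5 CPM with DNMT3a siRNA, 36.3, 24.9 and 28.1 CPM with DNMT3b siRNA, and 44.4, 37.3 and 42.6 CPM with negative siRNA. Every DNMT3b siRNA library was below every negative siRNA library, and the DNMT3a siRNA and negative siRNA libraries overlapped. The log2 fold change was -0.48 (SE 0.15, adjusted p = 0.0899) for DNMT3b siRNA over negative siRNA and -0.28 (SE 0.15, adjusted p = 0.282) for DNMT3a siRNA over negative siRNA, neither past the threshold of 0.05. Over the alternative settings the adjusted p of the DNMT3b siRNA comparison ran between 0.00739 and 0.307, and it passed with DESeq2 (0.0333), with no filter on low counts (0.0212) and without DNMT3b siRNA library 1 (0.0289).

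Naprt, which opens the nicotinic acid route, had 10.7, 13.6 and 11.7 CPM with DNMT3a siRNA, 8.57, 13.6 and 12.5 CPM with DNMT3b siRNA, and 8.24, 14.2 and 8.98 CPM with negative siRNA, with all 3 groups overlapping. It shares 11.8% of its exonic bases with Eef1d on the same strand, so its value is uncertain there. Reads in those bases may have been set aside as ambiguous and counted for neither gene. Nadsyn1, which finishes that route, averaged 4.19 ± 0.937 CPM with DNMT3a siRNA, 4.25 ± 0.956 CPM with DNMT3b siRNA and 4.34 ± 0.820 CPM with negative siRNA (SD, n = 3 each). Its fitted log2 fold changes were -0.05 (SE 0.22) for DNMT3a siRNA over negative siRNA, -0.03 (SE 0.22) for DNMT3b siRNA over negative siRNA and -0.02 (SE 0.22) for DNMT3a siRNA over DNMT3b siRNA. None of the 6 comparisons of Naprt and Nadsyn1 passed, with adjusted p between 0.666 and 0.968.

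Nmnat1, the nuclear enzyme that completes NAD, averaged 5.82 ± 0.240 CPM with DNMT3a siRNA, 5.14 ± 0.394 CPM with DNMT3b siRNA and 6.04 ± 1.47 CPM with negative siRNA (SD, n = 3 each). Its DNMT3a siRNA libraries, at 5.62 to 6.09 CPM, were all above its DNMT3b siRNA libraries, at 4.90 to 5.59 CPM, but the log2 difference of 0.18 (SE 0.17) did not pass (adjusted p = 0.564). Nmnat3, the mitochondrial enzyme, was the lowest of the 9 genes per kilobase, at 1.27 to 2.48 CPM with DNMT3a siRNA, 2.12 to 2.31 CPM with DNMT3b siRNA and 1.34 to 3.12 CPM with negative siRNA. Neither gene passed in any comparison.

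Nadk (ENSMUSG00000029063, chr4:155562378-155591001, plus strand), which makes NADP, had 96.4, 94.9 and 93.3 CPM with DNMT3a siRNA, 105.3, 99.0 and 93.8 CPM with DNMT3b siRNA, and 116.4, 102.5 and 121.0 CPM with negative siRNA. Every DNMT3a siRNA library was below every negative siRNA library, whereas DNMT3b siRNA libraries overlapped the DNMT3a siRNA ones. The log2 fold change for DNMT3a siRNA over negative siRNA was -0.26 (SE 0.08, adjusted p = 0.073). Over the alternatives this adjusted p ran between 0.0249 and 0.217, and it passed with DESeq2 (0.0249), with a filter of at least 1 CPM in 3 libraries (0.0497) and without negative siRNA library 2 (0.0268).

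Nnt (ENSMUSG00000025453, chr13:119335448-119408997, minus strand), the transhydrogenase that supplies mitochondrial NADPH, was the 1 of the 8 tested members that passed in any comparison. It had 117.6, 110.0 and 116.3 CPM with DNMT3a siRNA, 142.3, 132.3 and 139.4 CPM with DNMT3b siRNA, and 140.3, 127.3 and 140.5 CPM with negative siRNA. The DNMT3a siRNA libraries were all below the libraries of the other groups, which overlapped each other. Nnt was lower with DNMT3a siRNA than with DNMT3b siRNA by a log2 difference of -0.27 (SE 0.07, adjusted p = 0.0422). This call ended when any of 8 of the 9 libraries was left out (each DNMT3a siRNA library, each DNMT3b siRNA library, or negative siRNA library 1 or 3), with adjusted p between 0.0526 and 0.145, and also with no filter on low counts (0.128) or scaling by library size alone (0.0593). Against negative siRNA, the log2 difference of -0.25 (SE 0.07) for DNMT3a siRNA did not pass (adjusted p = 0.0554). With replicate number as a block, which pairs the DNMT3a siRNA and negative siRNA libraries and also ties the DNMT3b siRNA ones, it passed (adjusted p = 0.0341). It also passed with DESeq2 size factors (0.0429), with a filter of at least 1 CPM in 3 libraries (0.0363), with DESeq2 (0.00971) and without negative siRNA library 2 (0.035), and the highest value was 0.159. DNMT3b siRNA over negative siRNA gave 0.02 (SE 0.07, adjusted p = 0.901). Another annotated Nnt gene (ENSMUSG00000116207) that overlaps 47.4% of these exons has no row in the tables, so how the counting treated reads in the shared exons is not known.

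**Figure D2:**
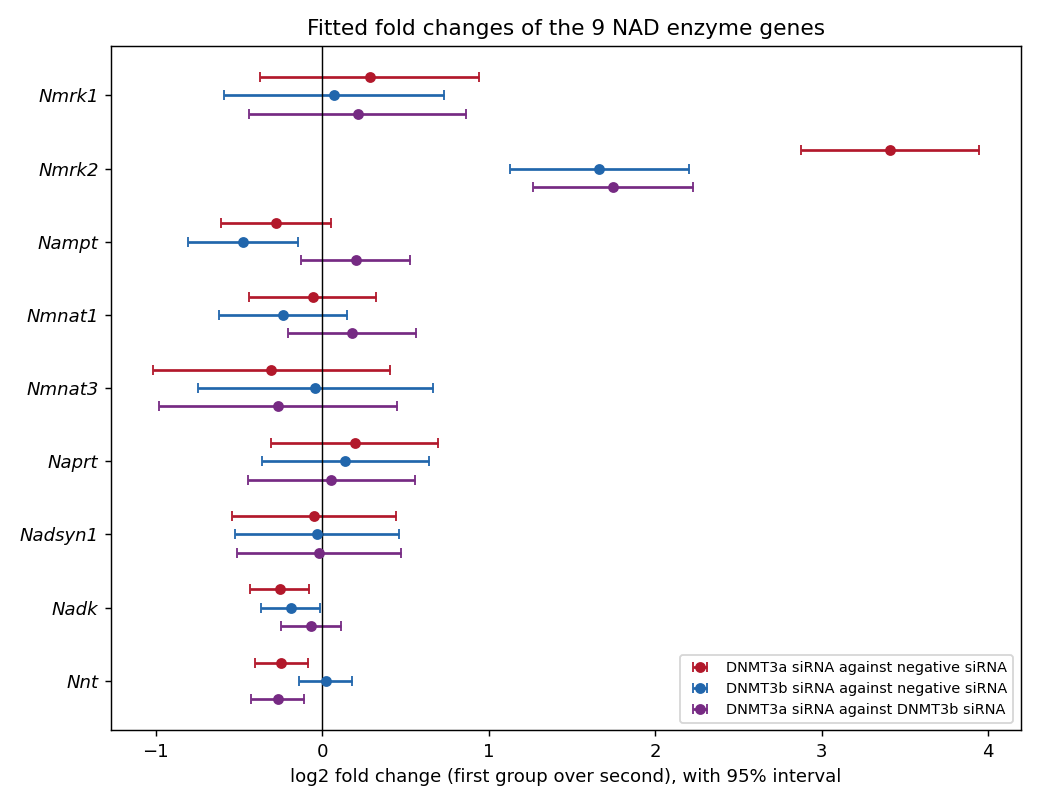
Fitted log2 fold change of each of the 9 genes for DNMT3a siRNA over negative siRNA, DNMT3b siRNA over negative siRNA and DNMT3a siRNA over DNMT3b siRNA, with 95% confidence intervals. Nmrk2 lies at 3.41, 1.66 and 1.75, and the other 8 genes lie between -0.48 and 0.28.

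The 8 tested members were then counted beside all genes. For DNMT3a siRNA over negative siRNA, 0 of 8 passed edgeR's quasi-likelihood test, against 10.1% of the 16561 genes (4.87% higher and 5.22% lower). Of those calls 48.3% were higher, or 61.1% with scaling by library size alone. This fit used group alone. With replicate number as a block, 1 of 8 passed, Nnt, beside 2370 of the 16561 genes. Of the 8 members, 2 had an unadjusted p under 0.05, and DESeq2 called 2 and limma-voom 0. DESeq2 also called more of all genes than edgeR did in the comparisons with negative siRNA, with the numbers given in the closing section. No all-gene share is set here beside the counts by unadjusted p, DESeq2 or limma-voom, so they are not read as high or low. Of the 8 members, 2 (Nadk and Nnt) had libraries that did not overlap between the groups, and both were below. Of all genes, 26.7% had groups that did not overlap (14.1% above and 12.6% below). For DNMT3b siRNA over negative siRNA, 0 of 8 passed edgeR's quasi-likelihood test, against 5.64% of genes (3.52% higher and 2.12% lower); 2 had an unadjusted p under 0.05, and DESeq2 called 1 and limma-voom 0. Here 1 of 8 (Nampt) had groups that did not overlap, against 26.1% of genes (13.8% above and 12.3% below). For DNMT3a siRNA over DNMT3b siRNA, 1 of 8 passed, Nnt, against 9.55% of genes (4.47% higher and 5.08% lower), and 2 (Nnt below, Nmnat1 above) had groups that did not overlap, against 32.3% of genes (16.2% above and 16.1% below). With both directions counted, the edgeR and non-overlap shares of the 8 were near or below those of all genes. By direction, some shares were above those of all genes. For DNMT3a siRNA over negative siRNA, 2 of 8 had groups apart and below, against 12.6% of genes, and 0 of 8 above, against 14.1%. For DNMT3a siRNA over DNMT3b siRNA, 1 of 8 passed as lower, against 5.08% of genes, and 0 of 8 as higher, against 4.47%. Whether 8 members differ from all genes in these shares was not tested. The median log2 fold change of the 8 was -0.15 with DNMT3a siRNA over negative siRNA, -0.04 with DNMT3b siRNA over negative siRNA and 0.02 with DNMT3a siRNA over DNMT3b siRNA, beside medians of 0.02, 0.00 and 0.01 over all tested genes. The comparisons with negative siRNA share its 3 libraries.

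Most cardiomyocyte markers, like Nmrk2, were higher with either siRNA than with negative siRNA. Of the 17 cardiomyocyte markers, 14 rose with DNMT3a siRNA over negative siRNA (median log2 fold change 1.29), against 4.87% of all genes. With DNMT3b siRNA over negative siRNA 15 rose (median 1.79), against 3.52% of all genes. Among those that did not pass, Myl7 had log2 fold changes of 0.05 and -0.09 in the same comparisons. For DNMT3a siRNA over DNMT3b siRNA the marker median was -0.30, whereas Nmrk2 was at 1.75. There 1 marker, the calcium release channel Ryr2, was lower with DNMT3a siRNA (adjusted p = 0.0399). The Ryr2 call ended with no filter on low counts (0.0646) and without any library of these groups. The transcription factor gene Nkx2-5 averaged 43.9 CPM with DNMT3a siRNA, 42.2 CPM with DNMT3b siRNA and 14.5 CPM with negative siRNA. It rose with DNMT3a siRNA (log2 fold change 1.59, SE 0.11, adjusted p = 3.72e-05) and with DNMT3b siRNA (1.54, SE 0.11, adjusted p = 5.69e-05). The myosin-binding protein gene Mybpc3 averaged 586 CPM with DNMT3a siRNA, 577 CPM with DNMT3b siRNA and 162 CPM with negative siRNA. It rose with DNMT3a siRNA (adjusted p = 0.000144) and with DNMT3b siRNA (0.000259), as did Nppa, the atrial natriuretic peptide gene (0.000807 and 0.00087 in the same comparisons). The cardiac actin gene Actc1 rose with DNMT3a siRNA (0.00113), and Ryr2 rose with DNMT3b siRNA (0.000429). In sorted bulk cells, more cells of a type and more RNA per cell cannot be told apart. Some markers of other cells of the heart also differed between groups. Of 10 fibroblast markers, 3 fell with DNMT3a siRNA over negative siRNA and 2 fell with DNMT3b siRNA over negative siRNA. The remaining 7 and 8 did not pass, among them Lum, with log2 fold changes of 0.0035 and 0.03. The sum of the list overlapped between all groups. Tcf21, a fibroblast transcription factor gene, averaged 117 CPM with DNMT3a siRNA, 133 CPM with DNMT3b siRNA and 191 CPM with negative siRNA (adjusted p = 0.00252 for DNMT3a siRNA and 0.0165 for DNMT3b siRNA over negative siRNA). Dcn fell in both comparisons (adjusted p = 0.0128 and 0.0183), and Pdgfra with DNMT3a siRNA (0.0156). Pdgfra was also lower with DNMT3a siRNA than with DNMT3b siRNA (0.00824). The Dcn calls ended with no filter on low counts (0.0537 and 0.0641), the Pdgfra call with only the 2 groups compared (0.0516), and the DNMT3b siRNA calls of Tcf21 and Dcn without DNMT3b siRNA library 2 or 3 or negative siRNA library 3. Without negative siRNA library 1 the DNMT3b siRNA call of Dcn also ended, and its DNMT3a siRNA call ended without DNMT3a siRNA library 1 or negative siRNA library 3.

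The 6 epicardial markers summed to 943 to 1216 CPM with DNMT3a siRNA, 845 to 1198 CPM with DNMT3b siRNA and 1354 to 1559 CPM with negative siRNA, so both siRNA groups were below negative siRNA. With DNMT3a siRNA over negative siRNA, 2 fell and 1 rose. Aldh1a2, which makes retinoic acid, fell by 1.52 on the log2 scale (SE 0.18, adjusted p = 0.00091), Msln averaged 268 CPM with DNMT3a siRNA and 517 CPM with negative siRNA (0.00653), and Tbx18 rose (0.00935). Aldh1a2 was also lower with DNMT3a siRNA than with DNMT3b siRNA (0.00504). With DNMT3b siRNA over negative siRNA, 1 fell, Upk3b (adjusted p = 0.0441, or 0.158 with no filter on low counts), a call that also ended without DNMT3a siRNA library 1, DNMT3b siRNA library 2 or 3, or negative siRNA library 1 or 3. The 8 endothelial and endocardial markers summed to 86.4 to 129.8 CPM with DNMT3a siRNA, 148.4 to 162.3 CPM with DNMT3b siRNA and 96.2 to 126.1 CPM with negative siRNA, so DNMT3b siRNA was above both other groups. Of these, 1 rose with DNMT3b siRNA over negative siRNA, the receptor gene Kdr (adjusted p = 0.0276), a call that ended without any DNMT3b siRNA library or negative siRNA library 1 or 3. The 7 smooth muscle and pericyte markers summed to 7930 to 9079 CPM with DNMT3a siRNA, 8124 to 9671 CPM with DNMT3b siRNA and 5614 to 8251 CPM with negative siRNA. The part of these cell types in the levels of Nmrk2 and of the other members was not tested.

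Per 1000 CPM of summed cardiomyocyte markers, a ratio chosen after the values were seen, Nmrk2 had 1.73, 1.57 and 1.57 CPM with DNMT3a siRNA, 0.418, 0.430 and 0.395 CPM with DNMT3b siRNA, and 0.243, 0.362 and 0.488 CPM with negative siRNA. On that scale every DNMT3a siRNA library was above all others, and DNMT3b siRNA and negative siRNA overlapped. Because Nmrk2 was chosen on these same libraries, the ratio is a description and tests nothing about its source.

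**Figure D3:**
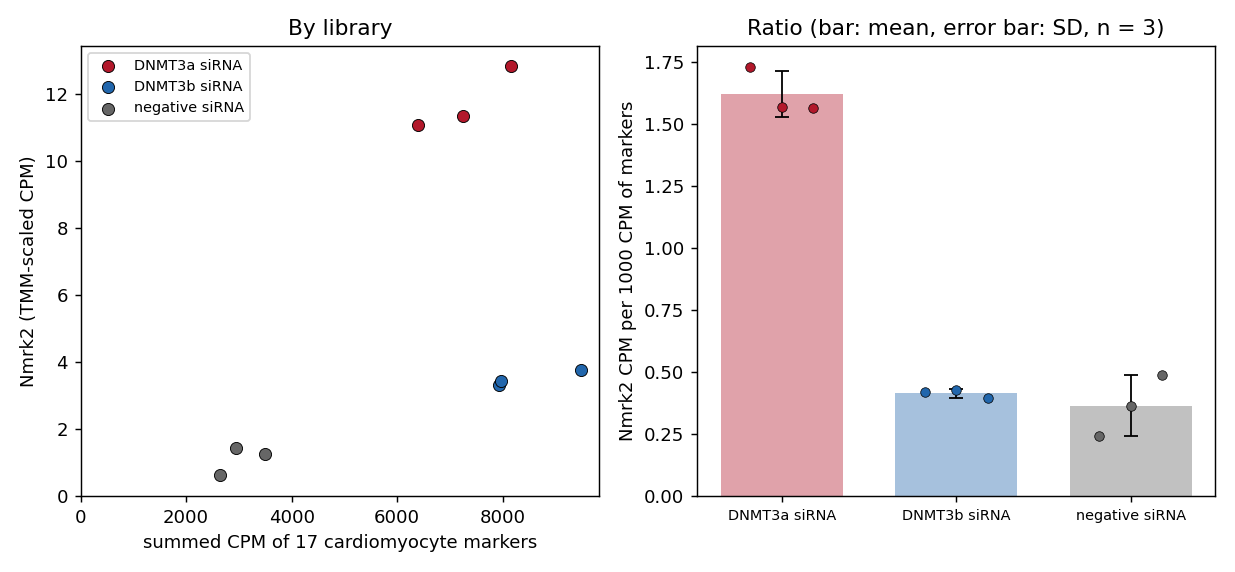
Left, Nmrk2 in CPM against the summed CPM of 17 cardiomyocyte markers in each of the 9 libraries, coloured by group; right, Nmrk2 CPM per 1000 CPM of these markers, with points for libraries, bars for the mean and error bars for the SD (n = 3). At marker sums of 6405 to 8158 CPM with DNMT3a siRNA and 7930 to 9488 CPM with DNMT3b siRNA, Nmrk2 lies at 11.1 to 12.8 CPM with DNMT3a siRNA and 3.32 to 3.75 CPM with DNMT3b siRNA.

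The genes whose log2 CPM followed Nmrk2 most closely over the 9 libraries, of 13985 genes compared, were Nppb (Pearson r = 0.981), Zswim5 (0.980), Retreg1 (0.973), Tom1l1 (0.972) and Ints5 (0.967). These correlations describe 9 libraries that fall into the same 3 groups. Nppb encodes the B-type natriuretic peptide, a hormone that heart muscle makes under stretch. It had 55.8, 58.0 and 49.6 CPM with DNMT3a siRNA, 21.7, 25.4 and 29.9 CPM with DNMT3b siRNA, and 5.82, 7.64 and 8.13 CPM with negative siRNA, in the same order of groups as Nmrk2 and without overlap. Nppb was picked for its correlation with Nmrk2, so the shared order is no separate result. Retreg1, a receptor for autophagy of the endoplasmic reticulum, averaged 29.9 CPM with DNMT3a siRNA, 19.5 CPM with DNMT3b siRNA and 9.99 CPM with negative siRNA. Closest to Nnt were Znrf2 (r = 0.980), Tbc1d20 (0.976) and Cxcl16 (0.975), and Znrf2 averaged 16.2 CPM with DNMT3a siRNA, 36.7 CPM with DNMT3b siRNA and 37.2 CPM with negative siRNA.

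Within 50000 bases of Nmrk2, 9 other genes have rows in the tables, and 0 of 9 passed edgeR's quasi-likelihood test for either siRNA over negative siRNA. Over all genes, 10.1% passed with DNMT3a siRNA and 5.64% with DNMT3b siRNA. With so few neighbours, 0 of 9 is not read as a result about the region. Of the 9 neighbours, 2 had an unadjusted p under 0.05 with DNMT3a siRNA and 1 with DNMT3b siRNA. For either siRNA, DESeq2 called 1 of them and limma-voom 0. No all-gene share is set beside these further counts. The neighbour Zfr2 averaged 13.0 CPM with DNMT3a siRNA, 6.54 CPM with DNMT3b siRNA and 6.17 CPM with negative siRNA (log2 fold change 1.08, SE 0.35, adjusted p = 0.0844 for DNMT3a siRNA over negative siRNA). Atcayos, on the opposite strand, shares 270 exonic bases, 14.6% of the Nmrk2 exons. The library kit is not described as keeping strand, so reads in those bases cannot be told apart. Atcayos averaged 2.29 CPM with DNMT3a siRNA, 5.17 CPM with DNMT3b siRNA and 1.86 CPM with negative siRNA, an order of groups unlike that of Nmrk2.

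Prkaa2, the α2 catalytic subunit of the AMP-activated kinase that senses low energy, came from a list of 7 factors reported to act on Nmrk2 or Nampt. Its groups had the same order as those of Nmrk2. It had 92.7, 86.5 and 85.2 CPM with DNMT3a siRNA, 49.1, 55.0 and 60.3 CPM with DNMT3b siRNA, and 34.3, 32.9 and 32.6 CPM with negative siRNA, with no overlap between the groups. Prkaa2 rose 2.65-fold with DNMT3a siRNA over negative siRNA (log2 fold change 1.41, SE 0.09, adjusted p = 3.49e-05). It rose 1.65-fold with DNMT3b siRNA over negative siRNA (0.72, SE 0.09, adjusted p = 0.00121). It was 1.61-fold higher with DNMT3a siRNA than with DNMT3b siRNA (0.69, SE 0.09, adjusted p = 0.00145). Prkaa1, the α1 subunit, fell with DNMT3a siRNA to 55.5 CPM, against 69.1 CPM with negative siRNA (log2 fold change -0.31, SE 0.09, adjusted p = 0.0497). This call ended with library size alone (0.134), with limma-voom (0.0533), with only the 2 groups compared (0.0931), and on leaving out any library but DNMT3a siRNA library 2 or negative siRNA library 2. The remaining 5 of the list did not pass. Among them Srf, a factor of muscle gene transcription, averaged 192 CPM with DNMT3a siRNA and 163 CPM with negative siRNA (log2 difference 0.23, adjusted p = 0.0781), and Ppara averaged 1.19 CPM and 0.947 CPM in the same groups.

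Other genes of NAD synthesis and transport were counted next. Of 14 tested outside the 9 members, 1 fell with DNMT3a siRNA over negative siRNA (1 rose and 2 fell with the replicate block), against 10.1% of all genes called in either direction. With DNMT3b siRNA over negative siRNA, 1 rose and 1 fell, against 5.64% of all genes. Nt5e, the cell-surface nucleotidase CD73, which can turn nicotinamide mononucleotide outside the cell into nicotinamide riboside, had 54.4, 58.0 and 58.9 CPM with DNMT3b siRNA and 38.5, 29.0 and 35.6 CPM with negative siRNA. Nt5e rose with DNMT3b siRNA (log2 fold change 0.73, SE 0.11, adjusted p = 0.0041). At 36.3, 30.6 and 33.8 CPM with DNMT3a siRNA, it was lower there than with DNMT3b siRNA (log2 difference -0.76, SE 0.11, adjusted p = 0.00294), whereas Nmrk2 was higher with DNMT3a siRNA. Nnmt, which methylates nicotinamide and so removes it from salvage, averaged 3.76 ± 0.966 CPM with DNMT3a siRNA, 2.93 ± 1.19 CPM with DNMT3b siRNA and 7.30 ± 0.112 CPM with negative siRNA (SD, n = 3 each). It fell with DNMT3a siRNA (log2 fold change -0.96, SE 0.27, adjusted p = 0.048) and with DNMT3b siRNA (-1.31, SE 0.27, adjusted p = 0.0191). The DNMT3a siRNA call of Nnmt ended without any DNMT3a siRNA or negative siRNA library or DNMT3b siRNA library 2 (adjusted p up to 0.116). The DNMT3b siRNA call ended without DNMT3b siRNA library 2 or 3 or negative siRNA library 1 or 3 (up to 0.0945). Nmnat2, the cytosolic relative of Nmnat1, averaged 1.05 CPM with DNMT3a siRNA, 1.19 CPM with DNMT3b siRNA and 0.859 CPM with negative siRNA. Nadk2, the mitochondrial NAD kinase, averaged 40.3 CPM with DNMT3a siRNA, 47.0 CPM with DNMT3b siRNA and 45.3 CPM with negative siRNA. Neither passed. The de novo route from tryptophan was barely measured: of its 9 genes only Afmid passed the filter, and Qprt, which turns quinolinic acid into nicotinic acid mononucleotide, had 23 reads over all 9 libraries.

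Among 25 enzymes that consume NAD, 1 rose and 2 fell with DNMT3a siRNA over negative siRNA, and 1 rose with DNMT3b siRNA over negative siRNA, beside the same 10.1% and 5.64% of all genes. Sirt3, the main mitochondrial deacetylase, had 7.07, 8.05 and 7.81 CPM with DNMT3a siRNA, 7.93, 7.89 and 9.07 CPM with DNMT3b siRNA, and 4.21, 5.43 and 4.88 CPM with negative siRNA. It rose with DNMT3a siRNA (log2 fold change 0.66, SE 0.14, adjusted p = 0.0135) and with DNMT3b siRNA (0.78, SE 0.14, adjusted p = 0.00914). The DNMT3b siRNA call ended without DNMT3b siRNA library 3 (0.0667). Cd38, an ectoenzyme that breaks down NAD, had 12.0, 12.7 and 20.8 CPM with DNMT3a siRNA, 24.9, 35.0 and 27.4 CPM with DNMT3b siRNA, and 25.7, 36.4 and 40.3 CPM with negative siRNA. Cd38 fell with DNMT3a siRNA over negative siRNA (log2 fold change -1.17, SE 0.24, adjusted p = 0.0176). That call ended with no filter on low counts (0.0759) and without DNMT3a siRNA library 1 or 2 or negative siRNA library 3. Bst1, its relative CD157, averaged 20.1 ± 8.11 CPM with DNMT3a siRNA and 45.9 ± 13.2 CPM with negative siRNA (SD, n = 3 each; log2 fold change -1.19, SE 0.30, adjusted p = 0.0425). That call ended with no filter on low counts (0.142), with only the 2 groups compared (0.0962), and on leaving out any library but DNMT3a siRNA library 3 or negative siRNA library 1. Both genes are also made by leukocytes. The 12 macrophage and leukocyte markers, none at 0, summed to 9.18 to 19.1 CPM with DNMT3a siRNA, 21.8 to 52.1 CPM with DNMT3b siRNA and 24.0 to 64.2 CPM with negative siRNA. Of these markers 3 fell with DNMT3a siRNA over negative siRNA, Csf1r (adjusted p = 0.0165), Adgre1 (0.018) and Mpeg1 (0.0182), or 11 with the replicate block. With only the 2 groups compared the Csf1r and Adgre1 calls ended (0.0535 and 0.0562), and with no filter the Mpeg1 call (0.0803). The Csf1r call also ended without DNMT3a siRNA library 1 or negative siRNA library 3, and the Adgre1 call without DNMT3a siRNA library 3 or negative siRNA library 3. Their part in the Cd38 and Bst1 values was not tested. Sirt1 and Parp1, the best known nuclear consumers, averaged 17.8 and 87.0 CPM with DNMT3a siRNA and 18.7 and 94.7 CPM with negative siRNA and did not pass.

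Enzymes that use these cofactors to carry electrons were counted in the same way. Of 13 NADPH-producing enzymes, 1 fell with DNMT3a siRNA over negative siRNA and 2 fell with DNMT3b siRNA over negative siRNA, where 5.22% and 2.12% of all genes fell in the same comparisons. Idh1, the cytosolic isocitrate dehydrogenase, had 74.9, 65.5 and 69.5 CPM with DNMT3a siRNA, 73.8, 65.2 and 62.5 CPM with DNMT3b siRNA, and 125.2, 96.1 and 88.2 CPM with negative siRNA. It fell with DNMT3a siRNA (log2 fold change -0.56, SE 0.13, adjusted p = 0.018, or 0.0575 without DNMT3a siRNA library 3) and with DNMT3b siRNA (-0.62, SE 0.13, adjusted p = 0.0163, lost without DNMT3b siRNA library 2 or 3, up to 0.09). Mthfd2, of mitochondrial folate metabolism, averaged 85.4 ± 4.76 CPM with DNMT3a siRNA, 45.1 ± 7.99 CPM with DNMT3b siRNA and 79.2 ± 3.64 CPM with negative siRNA (SD, n = 3 each). Mthfd2 fell with DNMT3b siRNA over negative siRNA (log2 fold change -0.81, SE 0.11, adjusted p = 0.00262) and was higher with DNMT3a siRNA than with DNMT3b siRNA (0.92, SE 0.11, adjusted p = 0.00137).

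Of 11 enzymes and carriers of the NADH shuttles, which move reducing power between cytosol and mitochondria, 6 rose with DNMT3b siRNA over negative siRNA, and 0 rose and 1 fell with DNMT3a siRNA over negative siRNA in edgeR's quasi-likelihood test (2 rose with the replicate block, with DESeq2 or with scaling by library size alone). Over all genes, 3.52% rose with DNMT3b siRNA over negative siRNA, and 4.87% rose and 5.22% fell with DNMT3a siRNA over negative siRNA. The median log2 fold change of the 11 shuttle genes was 0.38 with DNMT3b siRNA and 0.15 with DNMT3a siRNA. Mdh1, the cytosolic malate dehydrogenase, had 103.8, 140.1 and 109.4 CPM with DNMT3a siRNA, 191.7, 177.6 and 193.3 CPM with DNMT3b siRNA, and 118.1, 127.8 and 112.9 CPM with negative siRNA. Mdh1 rose with DNMT3b siRNA over negative siRNA (log2 fold change 0.65, SE 0.11, adjusted p = 0.0068). Ldhb, a lactate dehydrogenase subunit, rose by a log2 fold change of 0.67 (adjusted p = 0.0115), Got1, the cytosolic aspartate aminotransferase, by 0.37 (0.0163), and Slc25a13, a mitochondrial aspartate and glutamate carrier, by 0.63 (0.0171). The count of 6 was 3 without DNMT3b siRNA library 2, 1 without DNMT3b siRNA library 3, 3 without negative siRNA library 1 and 2 without negative siRNA library 3. Gpd2, the mitochondrial glycerol phosphate dehydrogenase, had 19.8, 20.2 and 20.4 CPM with DNMT3a siRNA, 38.8, 34.4 and 35.6 CPM with DNMT3b siRNA, and 40.1, 33.0 and 39.0 CPM with negative siRNA. Gpd2 fell 1.85-fold with DNMT3a siRNA over negative siRNA (log2 fold change -0.89, SE 0.10, adjusted p = 0.000395) and was lower with DNMT3a siRNA than with DNMT3b siRNA (-0.85, SE 0.10, adjusted p = 0.000926), with the DNMT3a siRNA libraries lowest, as for Nnt.

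**Figure D4:**
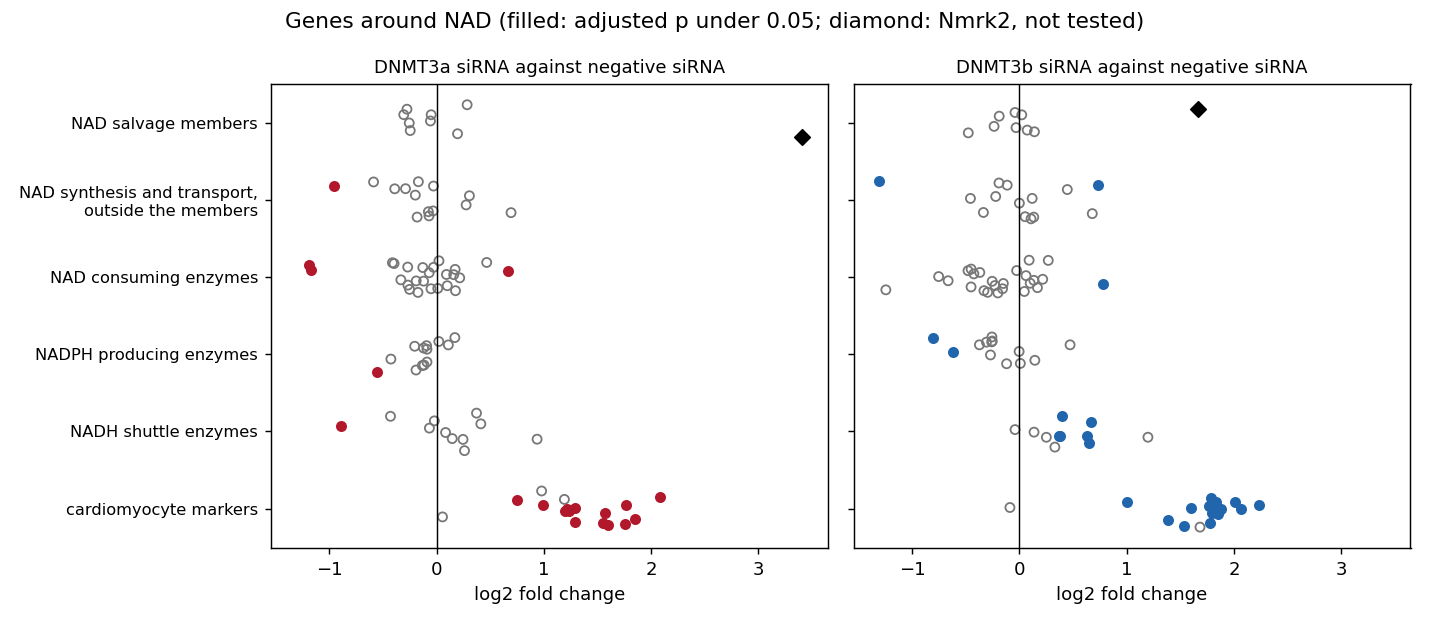
Fitted log2 fold change of each tested gene of the NAD lists and of the cardiomyocyte markers, for DNMT3a siRNA over negative siRNA and DNMT3b siRNA over negative siRNA; filled points had an adjusted p under 0.05, and the diamond is Nmrk2, which was not tested. Nmrk2 lies at 3.41 and 1.66, apart from the other salvage genes and on the side of the cardiomyocyte markers, of which 14 and 15 rose; the NADH shuttle genes include 6 that rose in the DNMT3b siRNA panel.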

How the data were processed

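RNA of 9 libraries in 3 groups was sequenced after poly(A) selection. Per the submitters' processing notes, FastQC, TopHat2 and HTSeq were used with mm10 and GRCm38; no version, strand setting or annotation release is named. The authors deposited whole-number read counts per Ensembl gene, not normalized. The 5 summary lines of each table, which held 49.2% to 56.2% of its total, entered neither library sizes nor tests. Gene symbols, coordinates and exon lengths came from GENCODE mouse on GRCm38 and matched 42462 of 43629 genes.

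Counts were tested in R 4.3.3 with edgeR 4.0.16 (filterByExpr with a minimum count of 10 and total of 15, TMM scaling, robust quasi-likelihood F test, two-sided) in 1 fit of all 9 libraries with 6 residual degrees of freedom among them. P-values were Benjamini-Hochberg adjusted over 16561 genes at a threshold of 0.05, and every adjusted p is from this fit unless another tool is named. The common biological coefficient of variation was 0.154. CPM are TMM-scaled, without the prior count of 2 used for log2 CPM. The scripts were tested on simulated data. DESeq2 1.42.0 and limma 3.58.1 were among 17 alternative runs. The members and gene lists were chosen with earlier results of these data known.

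Named were all 9 members, Dnmt3a, Dnmt3b, Vcam1, up to 4 genes with the smallest adjusted p among those that passed in each list and comparison, the 5 genes most correlated with Nmrk2 and the 3 most correlated with each other member that passed; the neighbours of Nmrk2 and the values given for genes that did not pass were chosen after their values were seen. Pnp, of the synthesis and transport list, has no row in the tables and was not analysed here. Replicate numbers in the labels were checked for pairing: same-numbered libraries of DNMT3a siRNA and negative siRNA deviated together (correlations 0.434, 0.513 and 0.459). The correlations were positive but lower for DNMT3b siRNA with negative siRNA (0.212, 0.101 and 0.0334). They were also lower for DNMT3a siRNA with DNMT3b siRNA (0.161, 0.0776 and 0.0414). Only the DNMT3a siRNA and negative siRNA libraries were taken as paired. The fit described above used group alone, and replicate number entered only in the alternative run with a block. Whether the numbers pair the other libraries is not settled. No 2 libraries of the same group agreed within counting error; libraries of different groups were not compared in that way.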

Additional observations from a re-analysis of the deposited data

How the results depend on the processing

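Nmrk2 had the same direction in every comparison under all 17 alternatives; leaving out a library gave log2 fold changes of 3.11 to 3.63 for DNMT3a siRNA over negative siRNA, 1.37 to 1.88 for DNMT3b siRNA over negative siRNA and 1.68 to 1.80 for DNMT3a siRNA over DNMT3b siRNA. Its position among all genes for DNMT3a siRNA over negative siRNA was 1 to 6 in the filtered runs and 257 of 32185 with no filter on low counts, where genes with few reads enter.

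Of the 8 other members, for DNMT3a siRNA over negative siRNA 0 passed, against 1 with DESeq2 size factors, 2 with at least 1 CPM in 3 libraries, 2 with DESeq2, 1 with the replicate block and 0 to 2 with a library left out. For DNMT3b siRNA over negative siRNA 0 passed, against 1 with no filter, 1 with DESeq2, 1 with the replicate block (Nampt, adjusted p = 0.00739) and 0 to 1 with a library left out. For DNMT3a siRNA over DNMT3b siRNA 1 passed, against 0 with library size alone, 0 with no filter and 0 to 1 with a library left out. In the paired DNMT3a siRNA and negative siRNA comparison the replicate block added the call of Nnt (0.0341), changed no other member's call and gave 2370 genes over all genes. In the other comparisons, whose libraries were not taken as paired, the block gave 1801 genes for DNMT3b siRNA over negative siRNA and 2513 for DNMT3a siRNA over DNMT3b siRNA.

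Over all genes, 1671 passed for DNMT3a siRNA over negative siRNA, 946 with only the 2 groups compared, 2284 with DESeq2, and 868 to 1839 with a library left out (868 without DNMT3a siRNA library 1, 1038 without DNMT3a siRNA library 3, 971 without negative siRNA library 3). For DNMT3b siRNA over negative siRNA 934 passed, 1715 with DESeq2 and 287 to 1781 with a library left out (384 without DNMT3b siRNA library 2, 287 without DNMT3b siRNA library 3, 534 without negative siRNA library 1, 1781 without negative siRNA library 2, 449 without negative siRNA library 3). For DNMT3a siRNA over DNMT3b siRNA 1582 passed, and 524 to 1962 with a library left out (541 without DNMT3a siRNA library 1, 768 without DNMT3a siRNA library 3, 524 without DNMT3b siRNA library 2, 555 without DNMT3b siRNA library 3). Scaling by library size alone made 61.1% of the DNMT3a siRNA calls higher, against 48.3%.

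Some members turned sign, and the cause was not tested. For DNMT3a siRNA over negative siRNA these included the members with the lowest and highest log2 fold changes of the 8. They were Nmnat3 at -0.31 (SE 0.32) and Nmrk1 at 0.28 (SE 0.30). Nadsyn1 was 0.0046 for DNMT3a siRNA over negative siRNA and 0.0098 for DNMT3a siRNA over DNMT3b siRNA with library size alone, and Nmnat3 was 0.063 with limma-voom and 0.0291 with the replicate block for DNMT3b siRNA over negative siRNA. With a library left out, the log2 fold changes for DNMT3a siRNA over negative siRNA ran from -0.27 to 0.11 for Nadsyn1, -0.17 to 0.16 for Nmnat1, -0.62 to 0.004 for Nmnat3 and -0.0023 to 0.47 for Nmrk1. For DNMT3b siRNA over negative siRNA they ran from -0.25 to 0.13 for Nadsyn1, -0.0123 to 0.42 for Naprt, -0.32 to 0.27 for Nmnat3, -0.22 to 0.26 for Nmrk1 and -0.0261 to 0.0504 for Nnt. For DNMT3a siRNA over DNMT3b siRNA they ran from -0.22 to 0.18 for Nadsyn1 and -0.12 to 0.19 for Naprt.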
